A study of Arabidopsis thaliana with 9 samples.

Results

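The seed storage protein genes of Arabidopsis thaliana described here are 5 genes of 2S albumins, SESA1 to SESA5, and 4 loci of 12S cruciferins, namely CRA1, CRB, CRC and AT1G03890. These 9 loci, chosen by name with earlier results of these data known, were taken from a table of 33278 loci. RNA-seq was made from 6-day seedlings grown on soil under continuous light, with 2 libraries labelled as the hd2b hd2c double mutant and 2 of wild type Columbia-0. HD2B and HD2C are plant-specific histone deacetylases. The other 5 samples of the series come from 2-week leaves and are not analysed here: HD2C-FLAG in the hd2c background and hd2c itself, with wild-type counterparts, by chromatin or RNA immunoprecipitation. The labels name no alleles. They do not state whether replicate libraries stem from different plants, and the p-values below cover the variation among these 4 libraries, technical variation included.

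Storage proteins are made in the embryo while the seed matures and are broken down as the seedling establishes itself. The 2S albumins are small, sulphur-rich proteins and the 12S cruciferins are globulins of several subunits. Both are made as precursors, sorted by vacuolar receptors to the protein storage vacuole and cut there by vacuolar processing enzymes. Their genes are switched on in the embryo by LEC1, LEC2, FUS3 and ABI3 together with bZIP factors. After germination they are kept silent by the B3 proteins VAL1 and VAL2, the remodeller PICKLE, Polycomb proteins and histone deacetylases.

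Levels are given as FPKM, a fragment density per unit of transcript length and of depth, so levels of different genes can be set side by side. Of the targeted genes, HD2B stood at 24.2 and 24.3 FPKM in the labelled double mutants, against 138 and 191 FPKM in wild type. HD2C stood at 74.7 and 55.8 FPKM in the labelled double mutants, against 56.1 and 63.9 FPKM in wild type. Its mean was not lower (limma log2 change 0.11, adjusted p = 0.791), though labelled double mutant library 2 lay below both wild-type libraries. HD2D, a related gene, rose with 75.9 and 86.3 FPKM in the labelled double mutants and 45.8 and 50.9 FPKM in wild type (log2 change 0.73, adjusted p = 0.0476, but 0.232 without wild-type library 1, 0.0525 without wild-type library 2 and 0.0652 without labelled double mutant library 2). It also lost the call with no filter (adjusted p = 0.309), with 0.1 as the pseudocount (0.0514) and under a filter on the mean (0.0518). HD2A stood at 95.3 and 124 FPKM against 48.9 and 69.9 FPKM (adjusted p = 0.109, but 0.0174 after rescaling the columns without the rRNA loci and 0.00745 without wild-type library 2). Because of HD2C, the term labelled double mutants is used for these 2 libraries throughout. FPKM summed to between 956002 and 1105981 per library, and 19537 to 19767 loci reached 1 FPKM. The seedling label was checked against marker genes, none of them listed at 0: 7 photosynthesis genes summed to 42007 and 57176 FPKM in the labelled double mutants and 56714 and 51478 FPKM in wild type, and 8 root genes to 100.4 and 62.9 FPKM against 43.9 and 66.6 FPKM. No gene of either list was called by limma with all 4 libraries in the fit. All 8 root genes had a log2 change above 0 (median 0.38), where the median over all tested loci was 0.0041. Their median difference between same-numbered libraries was 0.90 for number 1 and −0.08 for number 2. Of the 7 photosynthesis genes, 1 had a log2 change above 0 and 6 below (median −0.14). The part of tissue makeup in the results was not tested.

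Transcripts of all 9 storage protein loci were listed above 0 in both labelled double mutants, and 8 of the 9 stood above 3 FPKM there. In wild type the 5 albumins were at or near 0, while the cruciferins CRA1 and CRC were detectable and differed widely between the libraries. Both labelled double mutants lay above both wild-type libraries in 9 of 9 loci. The same held for 17.4% of all loci in the table, and for 24.2% of the 19917 loci tested. In the test over all loci (limma on log2(FPKM + 1), Benjamini-Hochberg adjustment, threshold 0.05), SESA1, SESA2 and SESA4 rose, no member fell, and 5 tested members did not pass. Of all tested loci, 0.608% were called higher and 0.552% lower. The filter asked for at least 1 FPKM in at least 2 libraries. It let 8 members through, and 6 of these passed it through the labelled double mutants alone, so that they had to differ in order to be tested. SESA1, SESA2 and SESA4 are all among these 6, so their adjusted p-values are no separate evidence of a rise.

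**Figure D1:**
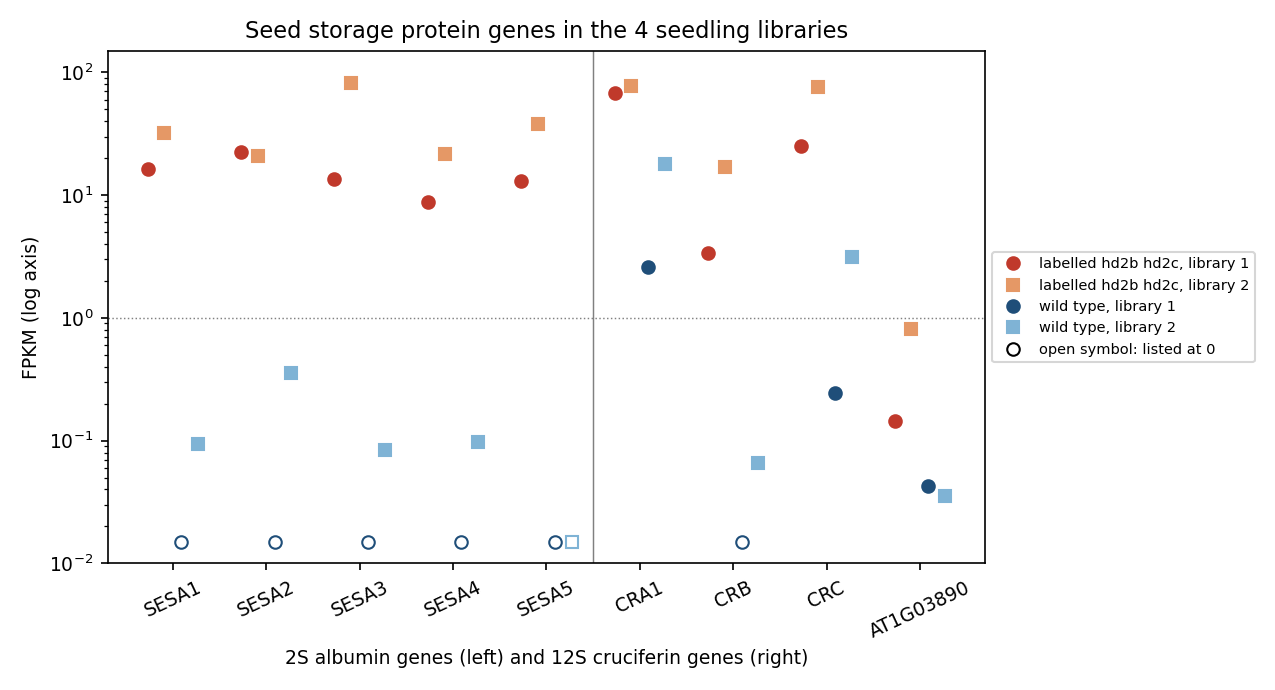
FPKM (log axis) of the 9 storage protein loci, with 1 symbol per library; open symbols at the foot stand for values listed at 0, and the dotted line marks 1 FPKM. The red and orange symbols of the labelled double mutants lie above the blue symbols of wild type at each locus, and wild-type library 2 reaches 17.9 FPKM for CRA1.

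SESA1 to SESA4 lie next to each other on chromosome 4 with no other protein-coding locus between them. How reads shared between such related copies were assigned is not given in the sources used here, so the split between single copies is uncertain. SESA1 (AT4G27140) had 16.2 and 32.1 FPKM in the labelled double mutants, against 0 and 0.0946 FPKM in wild type. Its log2 change was 4.51 (SE 0.30, adjusted p = 0.00341). SESA2 (AT4G27150) had 22.3 and 20.8 FPKM in the labelled double mutants, against 0 and 0.355 FPKM in wild type (log2 change 4.28, SE 0.18, adjusted p = 9.12e-05). SESA2 was the only albumin that was not higher in library 2 of the labelled double mutants than in library 1, and it has the smallest standard error of the members.

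SESA4 (AT4G27170) had 8.71 and 21.7 FPKM in the labelled double mutants, against 0 and 0.0976 FPKM in wild type (log2 change 3.82, SE 0.42, adjusted p = 0.0410). SESA3 (AT4G27160) had 13.6 and 82.0 FPKM in the labelled double mutants, against 0 and 0.0835 FPKM in wild type. The groups of SESA3 do not overlap, but its labelled double mutant libraries differed 6.01-fold, and its log2 change of 5.07 (SE 1.17) had an adjusted p of 0.263. SESA5 (AT5G54740), the albumin gene on chromosome 5, had 13.1 and 38.1 FPKM in the labelled double mutants and was listed at 0 in each wild-type library (log2 change 4.55, SE 0.56, adjusted p = 0.0909).

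SESA1 lost its call when wild-type library 1 was left out (adjusted p = 0.177) or wild-type library 2 (0.102), and so did SESA4 (0.632 and 0.489). SESA4 also lost it under a filter on the mean of the 4 libraries (adjusted p = 0.0518), and SESA2 lost it when 0.1 was the pseudocount (0.0760). With no filter on low values none of the 3 passed (adjusted p = 0.229, 0.128 and 0.309 for SESA1, SESA2 and SESA4). HD2B, which fell (log2 change −2.69, adjusted p = 3.62e-04), did not pass there either (0.197). SESA3 and SESA5 gained a call when either labelled double mutant library was left out. In those fits the spread comes from the wild-type values alone, which are 0 or close to it. Such calls are therefore no evidence of a rise. SESA5 also passed with quantile normalization (adjusted p = 0.0497), after rescaling the columns without the rRNA loci (0.0390) and when 0.1 was the pseudocount (9.66e-04).

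The wild-type values of the albumins are close to the least the table can hold. In the libraries numbered 2, low values of the table pile up on a step once multiplied by the gene span less an offset. The offset was 215 bp in the labelled double mutant and 214 bp in wild type. In each library it was the one that put the most loci in 1 step of 0.4% width. Only loci under 0.3 FPKM with a span over 450 bp and a product within a fixed window around 1 step were counted. In the libraries numbered 1, 2.34% and 3.39% of such loci lay in 1 step. The share was 62.7% of 1205 loci in labelled double mutant library 2 and 62.8% of 1098 in wild-type library 2. If that step is 1 fragment, SESA1 had 355 fragments in labelled double mutant library 2 and 1 in wild-type library 2, SESA3 had 1026 and 1, SESA4 had 232 and 1, and SESA2 had 245 and 4. The ratio of FPKM between these libraries was 340 for SESA1 (95% exact Clopper-Pearson interval 60.6 to 13500), 58.6 for SESA2 (22.6 to 217), 982 for SESA3 (176 to 38800) and 222 for SESA4 (39.5 to 8820). The intervals cover counting error only, and the ratios compare these libraries rather than genotypes. The depth of the libraries numbered 1 could not be read from their values, so a listed 0 there carries no limit.

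Among the cruciferins, CRA1 (AT5G44120), which encodes cruciferin A, was the most abundant storage protein transcript in labelled double mutant library 1 and in both wild-type libraries. It had 67.7 and 77.8 FPKM in the labelled double mutants, against 2.60 and 17.9 FPKM in wild type. The labelled double mutants differed 1.15-fold and the wild-type libraries 6.86-fold, and the log2 change of 3.16 (SE 1.14) had an adjusted p of 0.382. The log2 difference between same-numbered libraries was 4.25 for number 1 and 2.06 for number 2. Without wild-type library 1 the log2 change was 1.96 (adjusted p = 8.78e-07), and without wild-type library 2 it was 4.35 (1.88e-13); in both fits 1 wild-type library is left and is assumed to vary like the other genotype.

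CRC (AT4G28520), the gene of cruciferin C, had 25.2 and 76.6 FPKM in the labelled double mutants, against 0.244 and 3.16 FPKM in wild type. Library 2 was the higher one in both genotypes, 3.03-fold in the labelled double mutants and 12.9-fold in wild type. Same-numbered libraries differed by 4.40 on the log2 scale for number 1 and by 4.22 for number 2, and the log2 change of 4.31 (SE 1.09) did not pass (adjusted p = 0.283). CRB (AT1G03880), the gene of cruciferin B, had 3.38 and 17 FPKM in the labelled double mutants, against 0 and 0.0651 FPKM in wild type (log2 change 3.11, SE 0.87, adjusted p = 0.27). CRB passed with a pseudocount of 0.1 (adjusted p = 0.0385). It also passed when either labelled double mutant library was left out, where the spread comes only from wild-type values of 0 and 0.0651 FPKM. AT1G03890, which lies next to CRB on chromosome 1, was the weakest member, with 0.143 and 0.812 FPKM in the labelled double mutants and 0.0431 and 0.0354 FPKM in wild type. It was below the filter and was not tested.

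Cruciferins held nearly all of the storage protein signal in wild type, and both families contributed in the labelled double mutants. The albumins summed to 74.0 and 195 FPKM in the labelled double mutants and to 0 and 0.631 FPKM in wild type, and the cruciferins to 96.5 and 172 FPKM against 2.89 and 21.1 FPKM. The albumins thus made up 43.4% and 53.0% of the FPKM of the 9 loci in the labelled double mutants, and 0% and 2.90% in wild type. CRA1 alone made up 70.2% and 45.2% of the cruciferin sum in the labelled double mutants and 90.1% and 84.6% in wild type. These shares are descriptions of 2 libraries each and were not tested. With 2 libraries against 2, an exact two-sided permutation test of a single value cannot go below 0.333.

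The order of the levels within the labelled double mutants changed between the libraries. Low values pile up on a step only in the libraries numbered 2, and whether FPKM was computed alike for both numbers is unknown. The split between SESA1 to SESA4 is uncertain as well, so the order is a description only. In library 1 CRA1 was followed by CRC, SESA2, SESA1, SESA3, SESA5, SESA4 and CRB. In library 2 SESA3 at 82.0 FPKM, CRA1 at 77.8 FPKM and CRC at 76.6 FPKM stood at the head, and SESA5, SESA1, SESA4, SESA2 and CRB followed. SESA3 ranked 9394 from the top of the 33278 loci in library 1 and 2007 in library 2, and CRA1 ranked 2193 and 2113. In both libraries AT1G03890 was last. Of the 9 members, 8 were higher in library 2 of the labelled double mutants and 7 were higher in library 2 of wild type. All tested loci leaned the same way, with a median log2 difference of library 2 minus library 1 of 0.0525 in the labelled double mutants and 0.0656 in wild type. The share of all loci higher in library 2 was not counted, so these member counts have no background.

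No neighbour of the storage protein genes was called. For each of the 5 positions in the genome that carry a member, the 3 protein-coding loci on either side were taken from the order of the RefSeq annotation (assembly TAIR10.1). Of these 30 loci, 24 were tested, with 0 calls by limma. Across all 19917 tested loci, 231 (1.16%) were called in either direction and 3420 had an unadjusted p under 0.05. A count of 0 among 24 loci is near that background. The log2 changes of the neighbours ran between −0.45 and 0.47, with a median of −0.01. Beside the albumin block, AT4G27130 had 132 and 115 FPKM in the labelled double mutants and 117 and 109 FPKM in wild type (log2 change 0.13, adjusted p = 0.695). The kinesin gene ATK2 on the other side had 22.5 and 18.0 FPKM in the labelled double mutants and 26.9 and 25.7 FPKM in wild type (log2 change −0.37, adjusted p = 0.228).

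**Figure D2:**
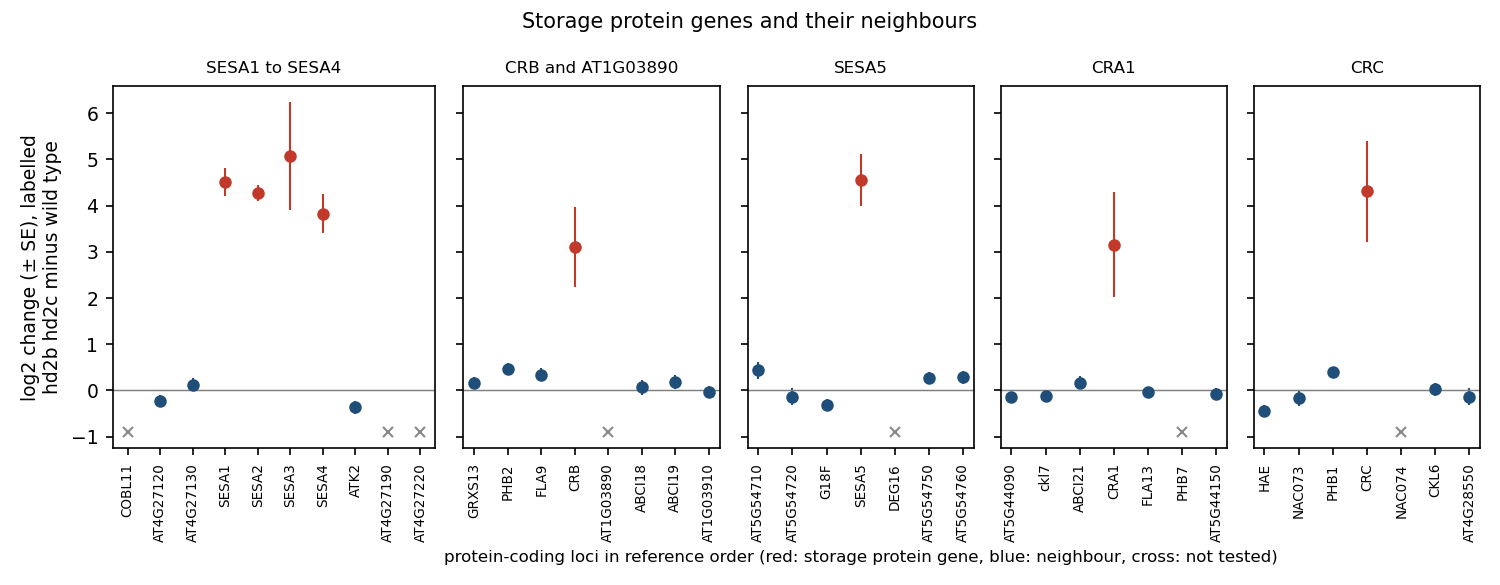
Log2 change with its standard error of the storage protein genes (red) and of the 3 protein-coding loci on either side (blue), in the order of the reference; a cross marks a locus that was not tested and has no value on the axis. Tested members lie between 3.11 and 5.07 and tested neighbours between −0.45 and 0.47.

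Of all 19917 tested loci, 10088 had a log2 change above 0 and 0.608% were called higher, which is the background for the seed lists that follow. Of 23 tested genes of seed filling and drying, 21 had a log2 change above 0 and 2 were called higher. The count of calls moved with the settings: it was 6 after rescaling the columns without the rRNA loci, 0 with no filter, 1 after removing the trend on gene span and 3 to 9 when a library was left out (6 without wild-type library 1, 9 without wild-type library 2, 9 without labelled double mutant library 1 and 3 without labelled double mutant library 2). Of 4 vicilin-like loci, 3 were tested and none was called, with a median log2 change of 1.55 against 0.0041 over all tested loci. PAP85 (AT3G22640), a vicilin-like globulin gene, had 4.36 and 11.6 FPKM in the labelled double mutants, against 0.0796 and 0.672 FPKM in wild type (log2 change 2.61, SE 0.49, adjusted p = 0.123). AT4G36700 had 5.09 and 2.17 FPKM in the labelled double mutants and 0.326 and 0.710 FPKM in wild type (adjusted p = 0.0958), and AT2G28490 had 2.25 and 5.62 FPKM against 0.155 and 1.18 FPKM (adjusted p = 0.227). PAP85 passed when either labelled double mutant library was left out, and AT4G36700 passed without labelled double mutant library 2. The spread of those fits comes only from low wild-type values. Of 10 oil body protein genes, 6 were tested, all with a log2 change above 0 (median 1.01), and 1 was called. That one was the oleosin gene OLEO4, with 5.61 and 7.50 FPKM in the labelled double mutants and 2.38 and 2.73 FPKM in wild type (log2 change 1.08, SE 0.17, adjusted p = 0.0311, but 0.0701 without labelled double mutant library 2 and 0.339 with no filter). AT3G01570 of the same list missed the threshold (log2 change 0.95, adjusted p = 0.0594) and passed after rescaling the columns (0.0196) and without wild-type library 2 (0.00979).

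OLEO1, the major oleosin of seed oil bodies, had 7.10 and 17.1 FPKM in the labelled double mutants, against 0.206 and 1.07 FPKM in wild type (log2 change 2.94, adjusted p = 0.123). It passed when either labelled double mutant library was left out, where the spread comes only from low wild-type values. OLEO2 had 8.75 and 10.4 FPKM in the labelled double mutants, against 0.536 and 2.46 FPKM in wild type (log2 change 2.19, adjusted p = 0.117). It passed when either wild-type library was left out, where the spread comes only from the labelled double mutants. Of 20 late embryogenesis abundant and related genes of dry seeds, 14 were tested, 12 had a log2 change above 0 (median 1.1) and 1 was called. It was AT3G17520, with 6.09 and 8.10 FPKM in the labelled double mutants and 2.67 and 3.14 FPKM in wild type (log2 change 1.04, adjusted p = 0.0348). Its call was lost without labelled double mutant library 2 (adjusted p = 0.0767), after removing the trend on gene span (0.0549) and with no filter (0.354).

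In the same list PER1, a seed peroxiredoxin gene, had 5.54 and 9.57 FPKM in the labelled double mutants, against 0.967 and 2.04 FPKM in wild type (log2 change 1.77, adjusted p = 0.0594). PER1 passed after rescaling the columns (adjusted p = 0.00188). It also passed without wild-type library 1, without wild-type library 2 and without labelled double mutant library 1. EM1 had 1.39 and 3.55 FPKM in the labelled double mutants and 0.369 and 0.608 FPKM in wild type (adjusted p = 0.141, but 0.0300 after rescaling the columns). It also passed without labelled double mutant library 1. With a library left out, the spread comes from the other genotype only. Across the vicilin-like, oil body and dry seed lists together, 5 of the 23 tested genes had passed the filter through the labelled double mutants alone. Summed over their 34 genes, library 2 was the higher one in both genotypes, with 109 and 203 FPKM in the labelled double mutants and 54.4 and 65.8 FPKM in wild type. A large part of the wild-type sums came from RAB18 of the dry seed list, which did not rise. It stood at 13.0 and 41.4 FPKM in the labelled double mutants and 25.9 and 21.3 FPKM in wild type (limma log2 change −0.0079, adjusted p = 0.992). In bulk tissue, more cells that carry a transcript and more transcript per cell cannot be told apart.

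**Figure D3:**
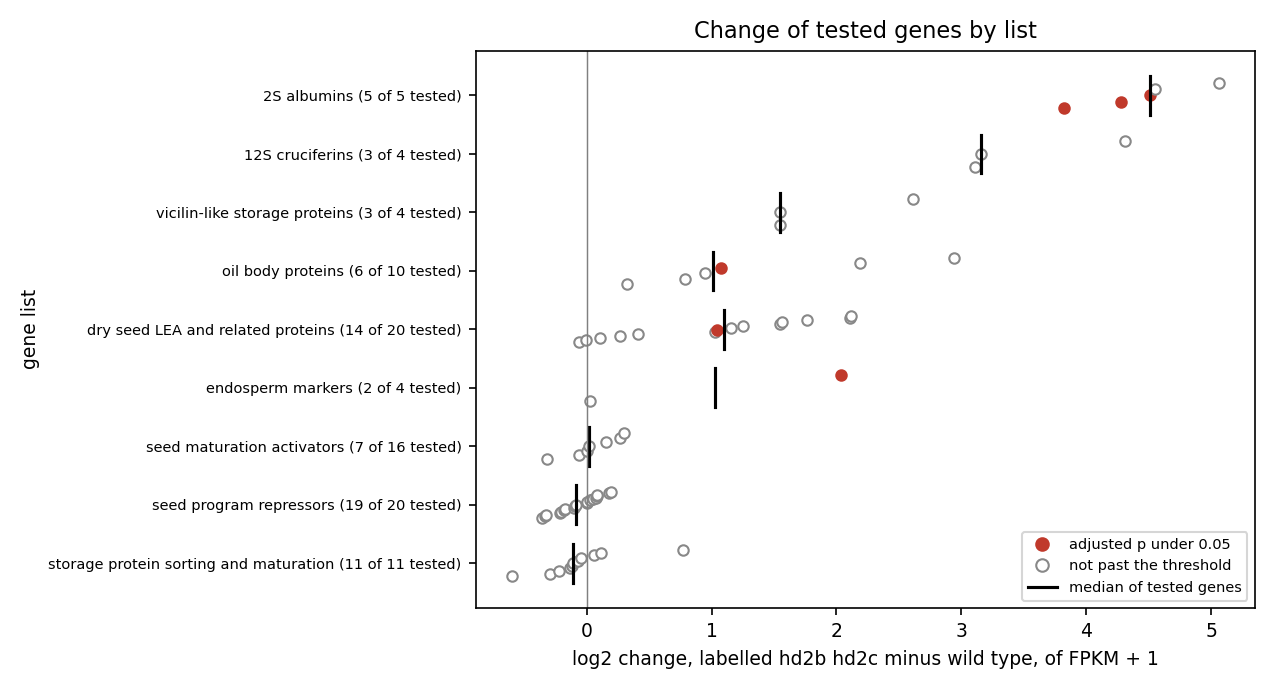
Log2 changes of the tested genes of each list, with filled red circles for adjusted p under 0.05, open circles for the rest and a bar at the median of the tested genes. The medians fall from 4.51 for 2S albumins and 3.16 for 12S cruciferins to 1.01 for oil body proteins, and those of the regulator and sorting lists lie near 0.

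Markers of other seed tissues were mixed. Of 4 endosperm genes, EPR1, an extensin-like gene of the endosperm, had 3.61 and 3.54 FPKM in the labelled double mutants, against 0.0225 and 0.223 FPKM in wild type, and rose (log2 change 2.03, SE 0.18, adjusted p = 0.00273, but 0.148 with no filter). EPR1 passed the filter through the labelled double mutants alone, so it had to differ in order to be tested. MFT stood at 5.88 and 6.17 FPKM against 5.67 and 6.11 FPKM (adjusted p = 0.942), and ZOU and ALE1 were listed at 0 in the labelled double mutants, against 0 and 0.0480 FPKM for ZOU and 0.0770 and 0.0382 FPKM for ALE1 in wild type. The 4 genes summed to 9.50 and 9.71 FPKM in the labelled double mutants and 5.77 and 6.42 FPKM in wild type. The 5 seed coat genes, BAN and TT10 among them, were all under 1 FPKM in each library and summed to 0.243 and 0.302 FPKM against 0.209 and 0.336 FPKM. The early embryo gene WOX8 was listed at 0 in all 4 libraries, and WOX2 stood at 1.69 and 1.67 FPKM in the labelled double mutants and 1.19 and 1.74 FPKM in wild type. The part of the endosperm marker in the storage protein result was not tested.

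**Figure D4:**
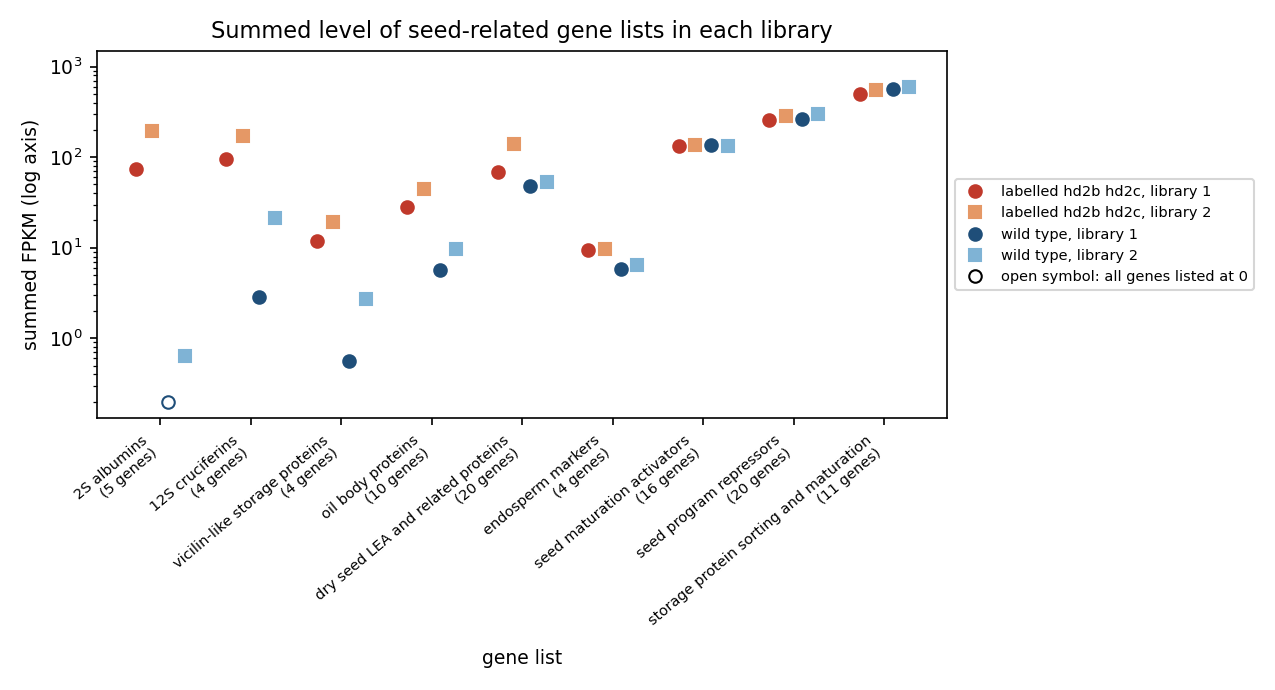
Summed FPKM (log axis) of each gene list in each library; the open symbol marks the list whose genes are all listed at 0 in wild-type library 1. Storage protein, oil body and dry seed lists are higher in both labelled double mutants and in library 2 of each genotype. The sum of the activators is carried mostly by bZIP10, bZIP25 and bZIP53 and does not show the embryo activators.

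Of 16 activators of seed maturation, 9 were below the filter and were not tested. The other 7 had a median log2 change of 0.02 and 0 calls. With 1.16% of all tested loci called, a count of 0 in lists of this size is near the background, here and for the repressors and the sorting genes. ABI3, the B3 factor that activates storage protein genes, stood at 0.306 and 0.175 FPKM in the labelled double mutants and 0.0213 and 0.0833 FPKM in wild type. FUS3 stood at 0.556 and 0.190 FPKM against 0.374 and 0.436 FPKM, LEC2 at 0.229 and 0.240 FPKM against 0.0919 and 0.210 FPKM, and LEC1 at 0 and 0.0612 FPKM against 0 in both wild-type libraries. These 4 were below the filter and were not tested. The smallest p of the activators belonged to bZIP10 (AT4G02640), a partner of ABI3, with 22 and 21.8 FPKM in the labelled double mutants and 26.3 and 28.7 FPKM in wild type (log2 change −0.32, adjusted p = 0.225). ABI5, the bZIP factor of abscisic acid response in seeds, stood at 1.34 and 1.56 FPKM against 0.874 and 1.20 FPKM (adjusted p = 0.498), and WRI1, an activator of oil synthesis genes, had a log2 change of 0.30 (0.374).

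Of 20 repressors of the seed programme, 19 were tested and none was called (median log2 change −0.08). PICKLE (PKL), a chromatin remodeller that silences embryonic genes, stood at 16.9 and 15.2 FPKM in the labelled double mutants and 20.1 and 21.0 FPKM in wild type (log2 change −0.34, adjusted p = 0.211). The Polycomb methyltransferase gene SWN had a log2 change of −0.33 (adjusted p = 0.221), and the remodeller gene BRM one of −0.36 (0.280). VAL1 (AT2G30470) stood at 7.28 and 8.24 FPKM in the labelled double mutants and 8.08 and 10.3 FPKM in wild type, and VAL2 (AT4G32010) at 9.55 and 9.24 FPKM against 9.88 and 12.3 FPKM.

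The machinery that sorts and cuts storage proteins was expressed in all libraries. All 11 of its genes were tested and none was called (median log2 change −0.11). VSR1, the main vacuolar sorting receptor of seed proteins, stood at 44.5 and 51.1 FPKM in the labelled double mutants and 49.3 and 55.4 FPKM in wild type. The processing enzyme gene betaVPE (AT1G62710), the seed type, stood at 7.54 and 9.59 FPKM against 8.81 and 8.83 FPKM. The vegetative type gammaVPE (AT4G32940) stood at 42.4 and 46.2 FPKM against 67.1 and 68.1 FPKM (log2 change −0.60, SE 0.12, adjusted p = 0.0667). Apart from the replicate block, it passed with quantile normalization (adjusted p = 0.0372), after rescaling the columns without the rRNA loci (0.00663) and without labelled double mutant library 2 (0.0491). The receptor gene VSR3 had a log2 change of −0.29 (adjusted p = 0.338). The gene of deltaVPE (AT3G20210), an enzyme of the seed coat, stood at 2.28 and 2.66 FPKM in the labelled double mutants and 0.785 and 1.31 FPKM in wild type (log2 change 0.77, adjusted p = 0.117). It passed without wild-type library 2 (adjusted p = 0.0349).

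The loci whose pattern over the 4 libraries was most like that of the storage proteins were found by the root mean square distance between centred log2(FPKM + 1) values and the median of the 8 tested members. The 5 nearest were MIR164b (distance 0.58), AT1G68250 (0.62), OLEO1 (0.62), LCR67 (AT1G75830, 0.68) and PAP85 (0.77), where the median distance of all tested loci was 2.12. These 5 loci were picked for this pattern in the same 4 libraries, so a rise in the labelled double mutants was built into the choice. The p-values below are therefore no separate evidence of a rise. MIR164b, AT1G68250, LCR67 and PAP85 also passed the filter through the labelled double mutants alone. MIR164b had 11.4 and 10.4 FPKM in the labelled double mutants and was listed at 0 in wild type (log2 change 3.57, adjusted p = 9.12e-05). AT1G68250 had 7.93 and 10.9 FPKM in the labelled double mutants, against 0.0977 and 0.380 FPKM in wild type (log2 change 3.07, adjusted p = 5.20e-04, but 0.197 with no filter). LCR67 had 5.09 and 46.4 FPKM in the labelled double mutants, against 0.304 and 0.216 FPKM in wild type, and did not pass (adjusted p = 0.391). It passed when either labelled double mutant library was left out, where the spread comes only from these low wild-type values.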

How the data were processed

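The authors deposited FPKM values per locus for 4 RNA-seq libraries, per the file headers. RNA libraries came from an Illumina Truseq kit, per the labels' protocols. The submitters' processing notes name TAIR10, Bowtie2, bedtools and TopHat without saying what each was used for. No source used here gives the program behind FPKM, the use of strand or the handling of shared reads.

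Of 33278 loci, the 19917 that reached 1 FPKM in 2 or more libraries entered limma (version 3.58.1, under R version 4.3.3) as log2(FPKM + 1). Genotype was the only term; moderation was robust and followed the mean-variance trend. Tests are two-sided with Benjamini-Hochberg adjustment over all tested loci. Log2 changes are labelled double mutant minus wild type and understate changes of weakly expressed genes. The fit and the search for fragment steps were tested on simulated data.

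The members and gene lists were chosen with earlier results of these data known. Named beside the 9 members are the 4 HD2 genes, list members that passed or had up to the 3 smallest p, the 5 most alike loci, and direct neighbours. ABI3, FUS3, LEC1, LEC2, VAL1, VAL2, VSR1, betaVPE, RAB18, ZOU, ALE1, BAN, TT10, WOX2 and WOX8 were named after their values were seen. Names, gene order and gene spans come from RefSeq TAIR10.1, to which 98.6% of loci matched. The spans entered the search for fragment steps, the fragment numbers and the fit with the trend on gene span removed.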

Additional observations from a re-analysis of the deposited data

How the results depend on the processing

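All 88 values of the 8 tested members, under 11 alternatives each, kept a log2 change above 0; their side of the threshold changed in 22 of them, 9 losing and 13 gaining it. Of the 8 tested members, 3 were called higher, against 0 with no filter on low values and 2 to 6 with 1 library left out. Without either wild-type library, 1 of those 3 (SESA2) kept its call, and CRA1 gained one. Higher loci numbered 332 with columns rescaled without rRNA loci, 40 with no filter, 62 with the trend on gene span removed (an alternative added after the data were seen) and 147 to 364 with 1 library left out. Lower loci numbered 284 with rescaled columns and 21 with no filter. Leaving out a library leaves 1 in its genotype, so the spread then comes from the other genotype only. With the replicate number as a block, higher and lower loci numbered 260 and 172 and 4 members passed, CRC gaining the call (adjusted p = 2.70e-05). Under the block 10 of the 23 tested vicilin-like, oil body and dry seed genes were called higher, among them PAP85 (0.00186), AT2G28490 (0.00912), OLEO1 (3.23e-04), OLEO2 (0.0180), AT3G01570 (0.0355) and PER1 (0.00324); HD2A (0.0108), gammaVPE (0.0332) and AT1G02300 (0.0344) passed as well. However, the labels do not say that the numbers pair the libraries, and differences between libraries 1 and 2 correlated by 0.168 between the genotypes across loci. The log2 change of MFT, which was not called, turned with rescaled columns (−0.0181), and with 1 library left out it ran from −0.0172 to 0.0751. That of HD2C, also not called, ran from −0.10 to 0.31 with 1 library left out. The cause of these shifts was not tested. The depth of the libraries numbered 1 is unknown, which limits what their listed 0 values mean.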

Other observations

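Of 11 cysteine protease genes of protein breakdown, 10 were tested and 0 were called by limma, where 1.16% of all tested loci were called. Their median log2 change was −0.10, with 4 above 0. The cathepsin B-like gene AT1G02300 stood at 12.8 and 11.5 FPKM in the labelled double mutants and 19.1 and 19.6 FPKM in wild type (limma log2 change −0.63, SE 0.12, adjusted p = 0.0555). Apart from the replicate block, it passed after rescaling the columns without the rRNA loci (adjusted p = 0.0263) and without labelled double mutant library 1 (0.0495). The aleurain-like protease gene AALP stood at 309 and 340 FPKM against 380 and 374 FPKM (adjusted p = 0.50), and RD19A at 244 and 234 FPKM against 270 and 274 FPKM (adjusted p = 0.540).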
